A study of Mus musculus with 14 samples.

Results

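The genes described here were 8 CC chemokines (Ccl2, Ccl3, Ccl4, Ccl5, Ccl7, Ccl8, Ccl11 and Ccl20) and 2 receptors that monocytes carry (Ccr1 and Ccr2), measured in the mouse colon with and without chemically induced colitis. They were chosen by name, as every probe whose transcript accession maps to one of the 10 genes, which gave 12 probes of 41174 on the array and 10 of 19096 gene symbols. Of these, 11 probes for 9 genes exceeded background clearly on 3 or more of the 14 arrays and were tested, among 29523 tested probes in all. The single probe for Ccr1 was well above background on 0 of the 14 arrays, so no level is given for Ccr1 and it entered no test.

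The 14 single-colour Agilent arrays carried colon RNA of C57BL/6 females, 4 to 6 months old and fed chow. Flox mice carry floxed alleles of Nr3c1, the gene of the glucocorticoid receptor (GR), and served as controls. GR iKO mice carry the same floxed alleles together with Villin-cre, which deletes GR in the intestinal epithelium and leaves it in immune, stromal and muscle cells. Mice of each genotype drank regular water (4 Flox and 4 GR iKO samples) or, for 7 days, 2.5% dextran sulfate sodium (DSS), a polymer toxic to the epithelium of the colon (3 Flox and 3 GR iKO samples). The labels do not say in so many words that each sample is a separate animal, so p-values measure the spread between these samples. The comparisons ask how this chemokine system answered DSS in each genotype, and whether the genotypes differed on water or on DSS.

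CC chemokines are small secreted proteins with adjacent cysteines that bind receptors of the Ccr family on leukocytes and draw those cells along a gradient into tissue. Ccl2, Ccl7 and Ccl8 belong to the monocyte chemoattractant group, and Ccr2 is the receptor through which Ccl2 and Ccl7 recruit inflammatory monocytes. Ccl3, Ccl4 and Ccl5 act on macrophages and T cells, Ccl3 and Ccl5 among others through Ccr1, Ccl11 (eotaxin) acts on eosinophils through Ccr3, and Ccl20, made by intestinal epithelium, acts on Ccr6 of lymphocytes and dendritic cells.

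A level here is the log2 signal less the log2 of the 75th percentile over that array's probes, so a level can be compared between arrays for 1 probe but not between probes. The 75th percentile itself ranged from 262 to 1003 signal units, with its lowest value on Flox DSS replicate 4, and 62.6% to 71.3% of probes per array were well above background. Replicate arrays of a group correlated at 0.958 to 0.989, and the median SD of a probe was 0.18 and 0.17 in the Flox and GR iKO water groups and 0.26 and 0.34 in the Flox and GR iKO DSS groups. Nr3c1 signal was 1.05 to 1.46 in the 7 Flox samples and 0.19 to 0.57 in the 7 GR iKO samples. The groups of the 2 genotypes did not overlap for Nr3c1. Whether that probe lies inside the floxed segment was not determined. In keeping with the label colon, all 10 epithelial markers were well above background on all 14 arrays. In whole colon, more cells of a type and more RNA per cell cannot be told apart.

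In the gene order of assembly GRCm38.p6, most of the ligands lie in 2 runs on chromosome 11. Ccl2, Ccl7, Ccl11, Ccl12, Ccl8 and Ccl1 follow each other in one run, and Ccl5, Ccl9, Ccl6, Ccl3 and Ccl4 in the other. Ccl20 lies by itself on chromosome 1, and Ccr1 and Ccr2 lie close together on chromosome 9, with Ccr2 next to Ccr3. RefSeq promoter sequences, from 250 bases before to 50 bases after the start of the gene, were at hand for 5 of the 10 genes. The 120 bases before the start are shown for 3 ligands that behaved differently on DSS: Ccl20, the only one of the 8 chemokines called lower on DSS in Flox mice, Ccl3, with the widest genotype difference on DSS, and Ccl8, with nearly equal levels on DSS in both genotypes. Each sequence is from GRCm38.p6 and is written 5′ to 3′ in the direction of the gene. Capitals mark matches to the motifs searched.
Ccl20, plus strand, chr1:83116646-83116765: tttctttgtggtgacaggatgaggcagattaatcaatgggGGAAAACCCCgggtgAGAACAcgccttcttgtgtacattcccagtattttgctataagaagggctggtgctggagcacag
Ccl3, minus strand, chr11:83649379-83649498: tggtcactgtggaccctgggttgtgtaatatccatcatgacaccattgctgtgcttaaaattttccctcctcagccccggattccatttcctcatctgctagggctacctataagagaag
Ccl8, plus strand, chr11:82115065-82115184: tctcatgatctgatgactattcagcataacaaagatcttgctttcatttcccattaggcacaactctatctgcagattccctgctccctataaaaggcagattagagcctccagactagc

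The search covered both strands of the whole 300-base windows with 4 motifs: the NF-kB consensus, TGTTCT (the half-site bound by GR), TGANTCA (AP-1) and TTCNNNGAA (STAT). The Ccl20 window held an NF-kB consensus match 80 to 71 bases before the start and a TGTTCT match 65 to 60 bases before the start, both read on the minus strand and not overlapping each other. The windows of Ccl3, Ccl8 and Ccr2 held no match to any of the 4 motifs, and that of Ccr1 held an NF-kB consensus match. Among 32851 promoters of the same length, 8.46% held the NF-kB consensus, 19% TGTTCT, 7.81% TGANTCA and 8.3% TTCNNNGAA.

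DSS raised 8 of the 9 measured genes in Flox mice, by 5.01-fold (Ccl11) to 72.05-fold (Ccl4), and lowered Ccl20. All 9 were called at an adjusted p under 0.05 by limma, with Benjamini-Hochberg adjustment over all 29523 probes, beside 52.6% of all probes called in this comparison (24.4% higher and 28.2% lower). In GR iKO mice DSS raised the same 8 genes, by 4.89-fold (Ccl11) to 359.7-fold (Ccl4), and Ccl20 was not called; 44.5% of all probes were called there (22% higher and 22.5% lower). The median log2 change of the 9 genes was 3.83 in Flox and 4.30 in GR iKO mice, beside −0.087 and −0.022 for all tested probes. These changes are relative to the bulk of the array: when arrays were scaled to the spiked-in control RNA, the median probe fell by 2.49 in Flox and by 1.00 in GR iKO mice, the calls for Ccl5, Ccl11 and Ccr2 in Flox were lost, and Ccl11 and Ccr2 turned to −0.080 and −0.055. The other 6 calls in Flox and the 8 calls in GR iKO mice were kept under spike-in scaling. All 9 genes in Flox had water and DSS arrays that did not overlap, beside 57.4% of all probes (25.8% with DSS higher), and so did 8 of 9 in GR iKO mice, beside 46.3% (22.6% with DSS higher).

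**Figure D1:**
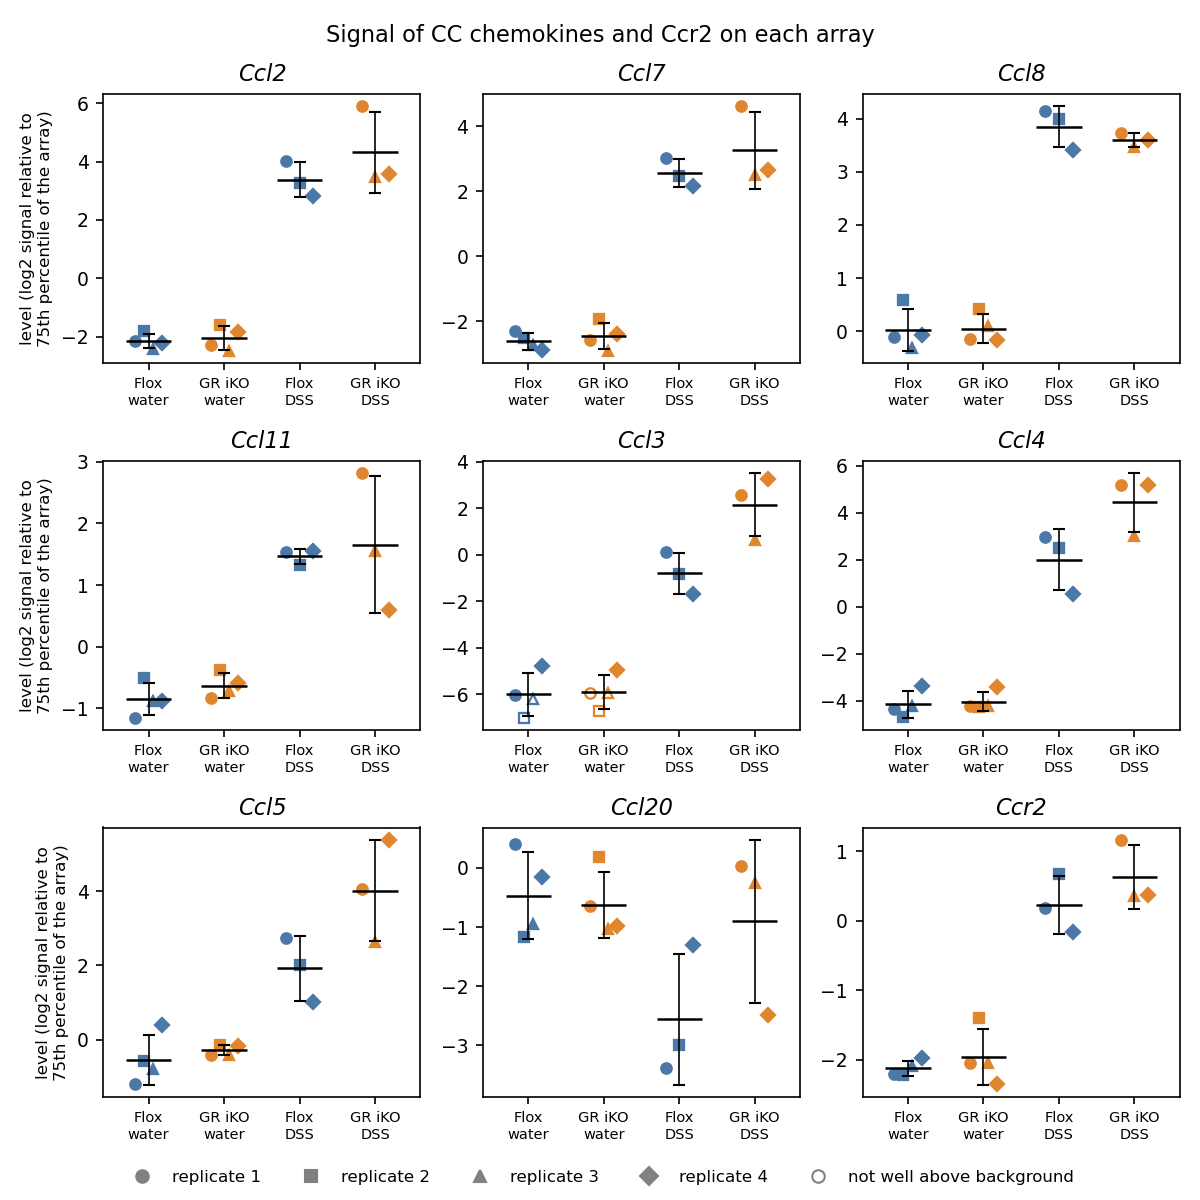
Level of each of the 9 measured genes on each of the 14 arrays (y axis, log2 signal relative to that array's 75th percentile; the y axes differ between genes) by genotype and treatment (x axis). Points are arrays, with the replicate number shown by their shape and open points not well above background, the horizontal line is the group mean and the bar is 1 SD; for all genes except Ccl20 every DSS array lay above every water array of its genotype.

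Ccl2, the best known monocyte attractant, stood at −2.13, −1.81, −2.42 and −2.21 in Flox water replicates 1 to 4 and at 4.02, 3.28 and 2.82 in Flox DSS replicates 1, 2 and 4. In GR iKO mice Ccl2 was −2.28, −1.59, −2.47 and −1.85 in water replicates 1 to 4 and 5.91, 3.46 and 3.57 in DSS replicates 1, 3 and 4. Water and DSS groups lay far apart in both genotypes, the gap between the highest water and the lowest DSS array being 4.63 in Flox and 5.05 in GR iKO mice, and GR iKO DSS replicate 1 was the highest array of all. Ccl2 rose 45.8-fold in Flox mice (log2 5.52, SE 0.50, adjusted p = 5.17e-06) and 82.1-fold in GR iKO mice (log2 6.36, SE 0.50, adjusted p = 3.64e-06).

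Ccl7, the neighbour of Ccl2 on the chromosome, ran from −2.88 to −2.28 in Flox water and measured 3.03, 2.48 and 2.18 in Flox DSS replicates 1, 2 and 4. Its GR iKO water arrays ran from −2.89 to −1.93, and its GR iKO DSS arrays measured 4.64, 2.50 and 2.67 in replicates 1, 3 and 4. As for Ccl2, replicate 1 was the highest GR iKO DSS array, the other 2 lay within the range of the Flox DSS arrays, and water and DSS did not overlap. Ccl7 rose 35.8-fold in Flox (log2 5.16, SE 0.44, adjusted p = 3.08e-06) and 52.4-fold in GR iKO mice (log2 5.71, SE 0.44, adjusted p = 2.95e-06). A second Ccl7 probe gave 34.4-fold and 56.1-fold, and normexp gave log2 changes of 4.43 and 5.11.

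Ccl8 differed little between genotypes. Its levels were −0.11, 0.58, −0.31 and −0.07 in Flox water and 4.15, 3.99 and 3.41 in Flox DSS, and −0.14, 0.42, 0.10 and −0.16 in GR iKO water and 3.73, 3.46 and 3.60 in GR iKO DSS. All 3 GR iKO DSS arrays lay inside the span of the Flox DSS arrays. Ccl8 rose 14.2-fold in Flox (log2 3.83, SE 0.23, adjusted p = 5.48e-07) and 11.7-fold in GR iKO mice (log2 3.54, SE 0.23, adjusted p = 1.24e-06), and the DSS arrays did not overlap the water arrays in either genotype.

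Ccl11, the eotaxin, lies between Ccl7 and Ccl12 in the gene order. It measured −1.15, −0.52, −0.88 and −0.88 in Flox water, 1.53, 1.32 and 1.55 in Flox DSS, −0.84, −0.37, −0.73 and −0.59 in GR iKO water, and 2.82, 1.55 and 0.60 in GR iKO DSS replicates 1, 3 and 4. The 3 Flox DSS arrays were close together, whereas the GR iKO DSS arrays spread on both sides of them. Ccl11 rose 5.01-fold in Flox (log2 2.32, SE 0.38, adjusted p = 0.000287) and 4.89-fold in GR iKO mice (log2 2.29, SE 0.38, adjusted p = 0.00046). Of 4 tested eosinophil markers, 1 was called higher and 2 lower on DSS in each genotype.

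Ccl3 was near the limit of detection on water, with levels of −6.01, −7.00, −6.22 and −4.76 in Flox replicates 1 to 4 and −5.96, −6.72, −5.93 and −4.93 in GR iKO replicates 1 to 4. Its probe was well above background on 2 of the 4 Flox and 1 of the 4 GR iKO water arrays and on all 6 DSS arrays. On DSS it measured 0.10, −0.81 and −1.68 in Flox replicates 1, 2 and 4 and 2.57, 0.63 and 3.28 in GR iKO replicates 1, 3 and 4. All DSS arrays lay above all water arrays. Ccl3 rose 36.8-fold in Flox (95% interval 13.3 to 102; adjusted p = 5.85e-05) and 264-fold in GR iKO mice (95% interval 95.3 to 733; adjusted p = 5.17e-06). Because most water signals were near background, these folds rest on dim values and on how background was treated: the log2 changes of 5.2 and 8.05 became 2.65 (adjusted p = 0.000178) and 5.33 (adjusted p = 1.15e-06) with normexp background correction, which adds an offset of 50 to each signal, and both lie outside the intervals given.

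Ccl4, the neighbour of Ccl3 and like it an inflammatory chemokine made by macrophages, was well above background on every array. Its water levels were −4.37, −4.68, −4.22 and −3.38 in Flox and −4.24, −4.26, −4.24 and −3.41 in GR iKO replicates 1 to 4. On DSS it reached 2.97, 2.51 and 0.54 in Flox replicates 1, 2 and 4 and 5.18, 3.00 and 5.18 in GR iKO replicates 1, 3 and 4. Among all 9 genes Ccl4 had the widest rise, 72.05-fold in Flox (log2 6.17, SE 0.62, adjusted p = 9.4e-06) and 359.7-fold in GR iKO mice (log2 8.49, SE 0.62, adjusted p = 2.27e-06). With normexp the log2 changes of Ccl4 were smaller too, at 4.87 and 7.30, and both were still called. In both genotypes replicate 4 was the highest water array for Ccl3 and for Ccl4.

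Ccl5, which activated T cells and NK cells make in quantity, measured −1.18, −0.57, −0.79 and 0.39 in Flox water and 2.75, 2.00 and 1.02 in Flox DSS. In GR iKO mice it measured −0.41, −0.15, −0.40 and −0.16 on water and 4.05, 2.64 and 5.37 on DSS replicates 1, 3 and 4. The gap between water and DSS was 0.63 in Flox mice, where water replicate 4 and DSS replicate 4 came closest, and 2.79 in GR iKO mice. Ccl5 rose 5.51-fold in Flox (log2 2.46, SE 0.57, adjusted p = 0.00311) and 19.7-fold in GR iKO mice (log2 4.30, SE 0.57, adjusted p = 0.000103). Of 9 tested T and NK cell markers, 1 was called higher and 2 lower on DSS in Flox and 0 were called in GR iKO mice.

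Ccl20 was the exception. Its levels were 0.41, −1.17, −0.95 and −0.15 in Flox water and −3.38, −2.99 and −1.31 in Flox DSS replicates 1, 2 and 4. In GR iKO mice they were −0.65, 0.18, −1.03 and −0.98 on water and 0.04, −0.26 and −2.48 on DSS replicates 1, 3 and 4. All 3 Flox DSS arrays lay below the 4 Flox water arrays, with DSS replicate 4 only just below, whereas in GR iKO mice 2 DSS arrays lay within the water range and 1 below it. Ccl20 was 4.26-fold lower on DSS in Flox mice (log2 −2.09, SE 0.65, adjusted p = 0.0169), and this call was lost without Flox DSS replicate 1 (adjusted p = 0.0799) or replicate 2 (adjusted p = 0.0619). With normexp the change was −1.41 (adjusted p = 0.0225). In GR iKO mice the change was −0.28 (95% interval −1.69 to 1.13; adjusted p = 0.753), an interval that holds both a fall and a rise, and without GR iKO DSS replicate 4 it was 0.51. Of 10 epithelial markers, 3 were called lower and 1 higher on DSS in Flox, and 1 lower and 1 higher in GR iKO mice, with a summed signal of 1074 to 1296 in Flox water, 805 to 1354 in Flox DSS, 1185 to 1341 in GR iKO water and 1044 to 1570 in GR iKO DSS, in units of the 75th percentile.

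Ccr2, the monocyte receptor, measured −2.20, −2.21, −2.09 and −1.97 in Flox water and 0.19, 0.66 and −0.16 in Flox DSS, and −2.04, −1.39, −2.04 and −2.34 in GR iKO water and 1.16, 0.35 and 0.37 in GR iKO DSS. The DSS arrays lay above the water arrays by at least 1.81 in Flox and 1.74 in GR iKO mice. Ccr2 rose 5.09-fold in Flox (log2 2.35, SE 0.26, adjusted p = 1.81e-05) and 5.98-fold in GR iKO mice (log2 2.58, SE 0.26, adjusted p = 1.66e-05). A second, dimmer Ccr2 probe gave smaller rises of 3.34-fold and 4.62-fold, also called. Of 15 monocyte and macrophage markers, all well above background on every array, 9 were called higher and 1 lower on DSS in Flox. In GR iKO mice 12 were called higher and 1 lower. Among the 15 markers, Fcgr1, an Fc receptor of monocytes and macrophages, rose by 3.25 and 3.50 on the log2 scale and Itgam (CD11b) by 2.11 and 2.65. Mertk, the marker called lower, changed by −1.28 and −0.96. Cx3cr1 (−0.95 and −1.07) and Adgre1 (0.68 and 0.75) were not called in either genotype. The part of these cells in the chemokine and Ccr2 levels was not tested.

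**Figure D2:**
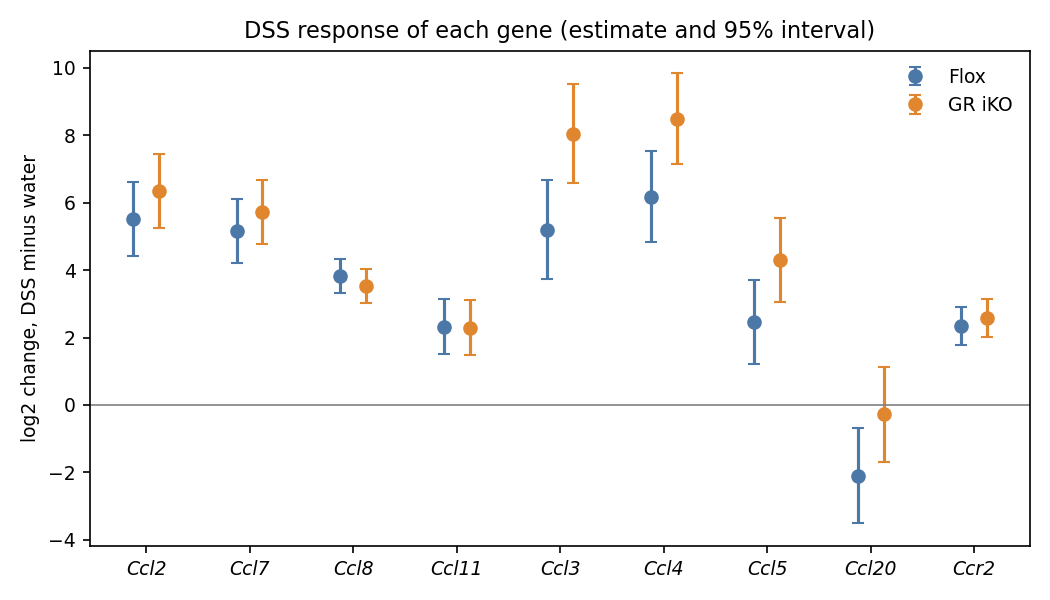
Change with DSS of the 9 measured genes (y axis, log2 level on DSS minus log2 level on water) in Flox and GR iKO mice; points are limma estimates from the fit on 14 arrays and bars are 95% intervals. All intervals except those of Ccl20 lay above 0; under spike-in scaling the Flox values of Ccl11 and Ccr2 turned to −0.080 and −0.055.

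Each slide held arrays of more than 1 group, and DSS could be set against water within 3 slides in each genotype. Water and DSS arrays did not overlap for the 8 genes that rose. Their direction within a slide was therefore fixed, as was that of Ccl20 in Flox mice, and is no separate check. Only the size could vary. The narrowest within-slide rise was that of Ccl5 in Flox on slide 4, where it was 0.63. Ccl20 was lower on DSS within all 3 Flox slides, by 1.16 to 3.79, and in GR iKO mice its within-slide differences were 0.77, 0.69 and −1.50.

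Other genes of the same system gave the setting. Of 10 other CC ligands tested, 5 were called higher and 2 lower on DSS in Flox, and 4 higher and 1 lower in GR iKO mice, with median log2 changes of −0.016 and 0.069. Ccl12, a monocyte attractant that lies between Ccl11 and Ccl8, rose by 3.73 (SE 0.28) in Flox and 2.84 (SE 0.28) in GR iKO mice. Ccl9 rose by 2.00 and 2.16, and the lymphoid homing chemokines Ccl19 and Ccl21a rose by 1.81 and 2.76 and by 1.79 and 1.14. Ccl6, which lies between Ccl9 and Ccl3 and was chosen for mention after its values were seen, changed by −0.58 and −0.59, with adjusted p-values of 0.0553 and 0.0584.

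Of 5 other CC receptors, 2 were called lower on DSS and 3 were not called in Flox mice, and 1 was called higher, 1 lower and 3 were not called in GR iKO mice. Ccr9, a homing receptor of gut lymphocytes, was lower on DSS in Flox by a log2 difference of −0.97 (adjusted p = 0.0283), and Ccr7, the receptor of Ccl19 and Ccl21a, was called higher in GR iKO mice (log2 2.38, adjusted p = 0.000256) and not in Flox mice (log2 0.44, adjusted p = 0.324). Ccr10 was well above background on every water array and on 0 of the 6 DSS arrays, which puts it at least 2.34-fold lower in Flox (adjusted p = 7.06e-05) and at least 3.02-fold lower in GR iKO mice (adjusted p = 7.73e-05). Those adjusted p-values are of the limma fit on the measured signals, dim ones included, and do not test the bounds. The receptor of Ccl20, Ccr6, chosen in the same way, changed by −2.01 (SE 0.84, adjusted p = 0.062) in Flox and 0.40 (SE 0.84, adjusted p = 0.729) in GR iKO mice. The receptor of Ccl11, Ccr3, likewise chosen afterwards, changed by 1.09 (adjusted p = 0.0552) and 1.02 (adjusted p = 0.08).

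Atypical receptors bind chemokines without the usual signalling and clear or carry them. Of 5 tested, 3 were called higher on DSS in Flox and 4 in GR iKO mice. Ackr1, which carries chemokines across vessel walls, rose by 2.22 (SE 0.25) and 2.18 (SE 0.25), and Ackr2, a scavenger of inflammatory CC chemokines, by 1.82 (SE 0.19) and 1.61 (SE 0.19). Ccrl2 rose by 1.42 (SE 0.33) and 2.78 (SE 0.33).

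**Figure D3:**
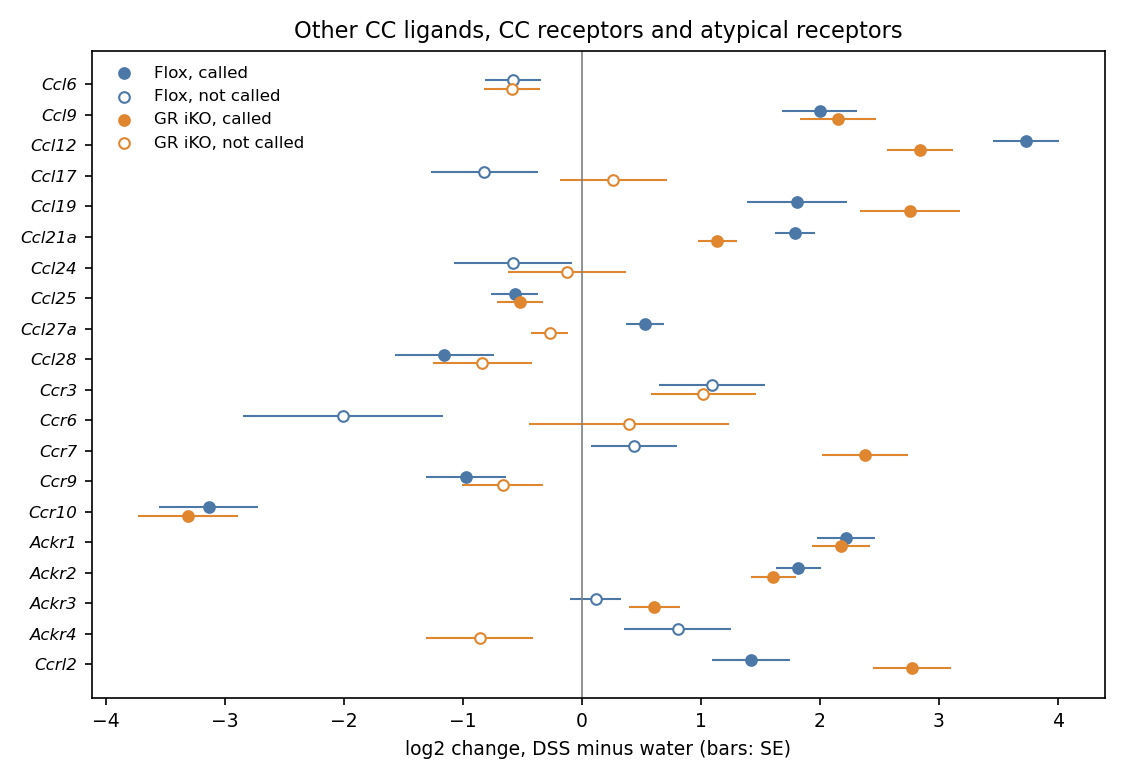
Change with DSS (x axis, log2 level on DSS minus log2 level on water) of other CC ligands, CC receptors and atypical receptors (y axis) in Flox and GR iKO mice; points are estimates, bars are 1 SE and filled points have an adjusted p under 0.05. Ccl12 and Ackr1 moved upward in both genotypes, and the Ccr10 points rest on DSS signals that were not well above background.

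Below the receptors, 6 of 15 signalling genes were called higher and 2 lower on DSS in Flox, and 12 higher and 0 lower in GR iKO mice. Fgr, a Src-family kinase of myeloid cells, rose by 1.43 and 2.68, Prex1 by 1.34 and 1.99, and Arrb2 by 1.29 and 1.48, whereas Pik3cg fell by 1.32 in Flox (adjusted p = 0.00472) and changed by −0.58 in GR iKO mice (adjusted p = 0.167). Among 9 cytokines known to induce chemokines, 6 were called higher in Flox and 7 in GR iKO mice. Il1b rose 44.9-fold and 216-fold, and Tnf 6.99-fold and 33.4-fold. Il6 was well above background on 0 of the 8 water arrays and rose at least 57.8-fold (adjusted p = 3.03e-08) and at least 134-fold (adjusted p = 1.13e-08). Ifng, well above background on 0 of 4 Flox water arrays and 1 of 4 GR iKO water arrays, rose at least 40.0-fold in Flox mice (adjusted p = 5.1e-05). For Il6 and Ifng too, the adjusted p-values are of the fit on the measured signals and do not test the bounds.

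Other cell types moved with DSS at the same time. Of 10 tested neutrophil markers, 9 were called higher in Flox and 10 in GR iKO mice, with a summed signal of 0.190 to 0.528 in Flox water, 0.243 to 0.731 in GR iKO water, 24.7 to 67.7 in Flox DSS and 85.1 to 292 in GR iKO DSS; the markers Cxcr2 and Mmp8 were well above background on 0 of the 8 water arrays. All 6 fibroblast markers were called higher in both genotypes, and 6 of 6 smooth muscle markers in Flox against 0 of 6 in GR iKO mice. The genotype by DSS interaction called 0 of the 6 smooth muscle markers. Of 6 B and plasma cell markers, 5 were called lower in Flox and 2 in GR iKO mice. Among 5 dendritic cell markers 0 were called in Flox and 1 was called higher in GR iKO mice, and among 5 endothelial markers 2 and 1 were called higher. Whether these shifts had a part in the chemokine levels was not tested.

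On water, none of the 9 genes passed the test between genotypes. The differences, GR iKO minus Flox, ran from −0.15 to 0.26 on the log2 scale, 0 of 9 were called by limma on the 8 water arrays and 0 had an unadjusted p under 0.05, beside 0.0102% of all probes called and 3.04% at an unadjusted p under 0.05. The fit on all 14 arrays also called 0 of 9, beside 0.00339% of all probes. Water levels of the 2 genotypes overlapped for each of the 9 genes, and 2.26% of all probes had groups that did not.

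On DSS, Ccl3, Ccl4 and Ccl5 were the genes with the widest genotype difference, all toward higher levels in GR iKO mice, and none passed the test in the fit on the 6 DSS arrays. GR iKO minus Flox was 2.95 for Ccl3 (SE 0.76, 95% interval 1.13 to 4.78, unadjusted p = 0.00707, adjusted p = 0.226), 2.45 for Ccl4 (SE 0.84, unadjusted p = 0.0245, adjusted p = 0.25) and 2.10 for Ccl5 (SE 0.75, unadjusted p = 0.03, adjusted p = 0.263). In this limma fit 0 of 9 genes and 0% of all 29523 probes were called, while 3 of 9 genes and 16.2% of all probes had an unadjusted p under 0.05. The Flox and GR iKO DSS arrays did not overlap for Ccl3 and Ccl4, beside 22.8% of all probes whose groups did not overlap (11.2% with GR iKO higher). For Ccl5 they overlapped, since GR iKO replicate 3 lay below Flox replicate 1.

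The fit on all 14 arrays, in which water and DSS samples share 1 estimate of the spread, called the same 3 genes higher in GR iKO mice, with adjusted p-values of 0.0229 for Ccl3, 0.0329 for Ccl4 and 0.0413 for Ccl5, beside 13.2% of all probes called (6.44% higher). That count of 3 fell to 0 without Flox DSS replicate 2, to 0 without GR iKO DSS replicate 1 and to 1 without GR iKO DSS replicate 4. Under spike-in scaling the fit on the 6 DSS arrays called 6 of the 9 genes higher in GR iKO mice (Ccl2, Ccl3, Ccl4, Ccl5, Ccl7 and Ccl20). In that fit 5245 of the 29523 probes were called, and the median of all probes was 1.27. The DSS arrays spread more than the water arrays, by SD ratios of 1.38 for Ccl3, 2.59 for Ccl4 and 2.38 for Ccl5. Within slides the difference was uneven: on slide 1 it was 0.53 for Ccl3, 0.028 for Ccl4 and −0.12 for Ccl5, and on slide 4 it was 4.95, 4.64 and 4.35. Slides 2 and 3 held DSS arrays of 1 genotype only.

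The remaining genes differed less on DSS or spread too widely. Ccl20 was 1.66 higher in GR iKO mice, with a 95% interval of −0.31 to 3.63 (adjusted p = 0.371), and its within-slide differences had opposite signs, 3.12 on slide 1 and −1.18 on slide 4. Ccl2 differed by 0.94 (95% interval −0.76 to 2.64), Ccl7 by 0.71 (95% interval −0.73 to 2.15), Ccr2 by 0.40 (95% interval −0.38 to 1.18) and Ccl11 by 0.19 (95% interval −1.10 to 1.48). The values of Ccl7 and Ccl11 turned to −0.016 and −0.46 with the slide as a block. Ccl8 gave the tightest bound, −0.26 with a 95% interval of −0.85 to 0.34, although spike-in scaling turned it to 0.99.

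**Figure D4:**
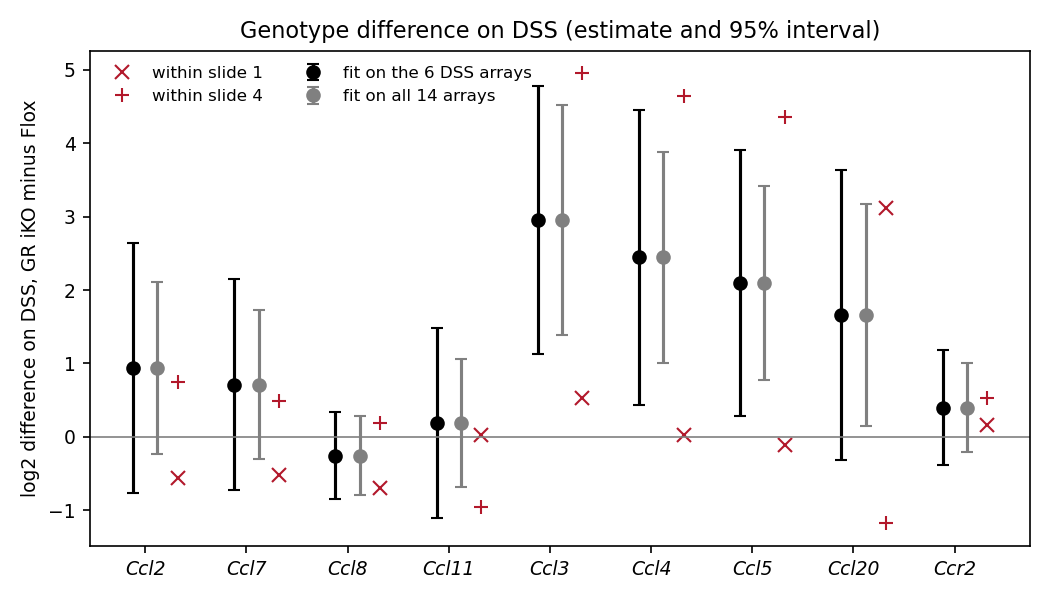
Genotype difference on DSS of the 9 measured genes (y axis, log2 level in GR iKO minus log2 level in Flox mice); black points are limma estimates from the 6 DSS arrays, grey points from all 14 arrays, bars are 95% intervals, and the red marks are the single differences within slides 1 and 4. The within-slide marks of Ccl3, Ccl4 and Ccl5 lie near 0 on slide 1 and above 4 on slide 4. With the slide as a block the values of Ccl7 and Ccl11 fell to −0.016 and −0.46, and spike-in scaling turned that of Ccl8 to 0.99.

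Whether DSS acted differently in the genotypes was tested directly by the interaction term. It was 2.84 for Ccl3 (SE 0.96, unadjusted p = 0.0114, adjusted p = 0.142), 2.32 for Ccl4 (SE 0.88, unadjusted p = 0.021, adjusted p = 0.18), 1.84 for Ccl5 (SE 0.80, unadjusted p = 0.0406, adjusted p = 0.236) and 1.81 for Ccl20 (SE 0.92, unadjusted p = 0.0717, adjusted p = 0.309). In limma 0 of 9 genes were called, beside 0.112% of all probes, and 3 of 9 had an unadjusted p under 0.05, beside 19.2% of all probes. Of the 14 fits that each left out 1 array, only 1 called Ccl3, Ccl4 and Ccl5. It left out GR iKO DSS replicate 3, the lowest GR iKO DSS array for these 3 genes. The share of all probes called in that fit is not given here. Under spike-in scaling 7 of 9 genes were called, with interaction terms of 4.27 for Ccl3 (adjusted p = 0.00664), 3.75 for Ccl4 (adjusted p = 0.00897), 3.26 for Ccl5 (adjusted p = 0.00872) and 3.24 for Ccl20 (adjusted p = 0.0113), but the median of all probes was then 1.45 and 19146 of the 29523 probes were called.

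The highest and the lowest of the 6 DSS arrays were not the same for all genes. GR iKO replicate 1 was the highest DSS array for Ccl2, Ccl7, Ccl11, Ccl20 and Ccr2. GR iKO replicate 4 was the highest for Ccl3 and Ccl5, and Flox replicate 1 for Ccl8. For Ccl4, GR iKO replicates 4 and 1 were nearly equal, at 5.182 and 5.177. At the other end, Flox replicate 4, the array with the lowest 75th percentile, was the lowest for Ccl2, Ccl3, Ccl4, Ccl5, Ccl7, Ccl8 and Ccr2, GR iKO replicate 4 was the lowest for Ccl11, and Flox replicate 1 was the lowest for Ccl20.

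Marker lists of several cell types also differed in level between the DSS groups. The summed signal did not overlap for neutrophil markers (24.7 to 67.7 in Flox and 85.1 to 292 in GR iKO mice), T and NK cell markers (0.972 to 1.35 and 1.53 to 2.18), dendritic cell markers (0.574 to 0.751 and 1.5 to 2.00) and the cytokines that induce chemokines (5.56 to 12.8 and 19.0 to 53.8), all higher in GR iKO mice. Smooth muscle markers went the other way, at 1036 to 1874 in Flox and 353 to 823 in GR iKO mice, and 6 of 6 were called lower in GR iKO mice in the fit on all 14 arrays. In each of these 5 lists the mean log2 level did not overlap either. Of all single probes, 22.8% had DSS groups that did not overlap, but no such share was computed for sums or means over lists. The fit on the 6 DSS arrays called 0 genes of these lists. The fit on all 14 arrays called higher 5 of 10 neutrophil, 1 of 9 T and NK cell and 1 of 5 dendritic markers. It also called 6 of 9 cytokines higher, beside 6.44% of all probes. The dendritic gap rested mostly on Itgax, 1.65 higher in GR iKO mice, whereas the other dendritic markers differed by 0.011 to 0.35. Monocyte and macrophage markers depended on the measure: their summed signal, to which the bright probes of Ly6c2 and Plac8 add most, was 215 to 373 in Flox and 470 to 506 in GR iKO mice, whereas their mean log2 level overlapped, at 1.29 to 1.94 and 1.72 to 2.31. The adjusted p-values of these 15 markers ran from 0.226 to 0.961 in the limma fit on the 6 DSS arrays, 2 of 15 were called higher in the fit on all 14, the median difference was 0.29, and Adgre1, Mrc1, C1qa, C1qb, Cd163 and Cx3cr1 were lower in GR iKO mice by 0.055 to 0.46. The part of these cells in the genotype difference of Ccl3, Ccl4 and Ccl5 was not tested.

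Over the 14 arrays, the genes whose levels followed Ccl2 most closely were Timp1 (Pearson r = 0.997), an inhibitor of metalloproteinases, Sting1 (r = 0.995), a sensor of cyclic dinucleotides, and Ifitm1 (r = 0.994), an interferon-induced membrane protein. Ccl5 was followed by Ccrl2 (r = 0.989), Il1f9 (r = 0.978) and Mmp25 (r = 0.977), and Ccl11 by Lrg1 (r = 0.975), Tmem184c (r = 0.974) and Ackr2 (r = 0.973). For Ccr2 they were Tgm1 (r = 0.994), Pstpip1 (r = 0.993) and Sirpb1b (r = 0.991). Ccl20 had lower values, with Dyrk4 (r = 0.931), Abcg5 (r = 0.928) and Hvcn1 (r = 0.926). The points share their arrays and, for all but Ccl20, a wide step between water and DSS, so these values are a description over 15455 genes compared.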

How the data were processed

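Total RNA from 14 colon samples was labelled with Cy3 and hybridised to single-colour arrays, and groups were taken from the sample labels. Spot intensities are those the authors obtained from the scans with Agilent Feature Extraction (12.0.0.7 per the file headers). The software subtracts background and lifts small values to a positive surrogate. The submitters' processing notes also name Partek 6.6. A value table of deposited log2 values, of unstated normalization, had a median of 6.05 on each array and had a lowest correlation of 0.999 with the log2 intensities of the scanner files, and served as an alternative.

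Control spots and spots marked by the scanner software as uneven or outlying were removed, and repeated spots averaged. From each log2 intensity the array's own 75th percentile was subtracted. Probes clearly above background on 3 or more arrays were tested with limma 3.58.1 in R 4.3.3, two-sided, with Benjamini-Hochberg adjustment over all 29523 probes and a call at 0.05. DSS changes and the interaction were fitted on 14 arrays and genotype differences on the 8 water or 6 DSS arrays, and fits were tested on simulated data. Symbols come from RefSeq accessions (28223 of 29245 probes matched). Of several probes for a gene, the one of highest mean signal was used. From each other gene list, up to 4 genes with the largest change among the called could be named. Further genes of the lists are named for their detection, brightness or direction and were not chosen by that rule. The members, lists and tests were chosen with earlier results of these data known. Alternatives changed background correction (normexp, offset 50, on median rather than mean signals), normalization, spike-in scaling, the filter, weights, blocks, probe choice and each array left out. No probe was saturated, and precision is limited by the number of arrays. How the study tested its arrays is not given in the sources used here. 1 gene of the receptor list is not reported here.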

Additional observations from a re-analysis of the deposited data

Results flagged for a closer look

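The Ccl4 level of GR iKO water replicate 4 was −3.41, far from the other 3 GR iKO water arrays at −4.26 to −4.24, the gap being 0.974 of the range of the group. It was the only extreme array among 18 groups tested (9 genes in the 2 water groups), and chance marks about 1 group in 20. The Flox water array on the same slide was also the highest of its group for Ccl4, at −3.38. Whether the slide had a part in this was not tested.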

How the results depend on the processing

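The counts of members called with DSS (9 in Flox, 8 in GR iKO mice) and on water (0) stayed within 1.5 times under every alternative run, although spike-in scaling left 6 in Flox. For the genotype difference on DSS, 0 were called in the fit on 6 arrays, 6 under spike-in scaling and 3 in the fit on all 14 arrays, whose counts without 1 array each ran from 0 to 3. For the interaction, 7 were called under spike-in scaling and 0 to 3 without 1 array each. The direction turned for Ccl11 (−0.080) and Ccr2 (−0.055) with DSS in Flox under spike-in scaling, and for Ccl20 in GR iKO mice, which ranged from −0.75 to 0.51 without 1 array each. On DSS it turned for Ccl8 (0.99, spike-in scaling), Ccl7 (−0.016, slide as a block) and Ccl11 (−0.16 with array quality weights, −0.46 with the slide as a block, −0.39 to 0.72 without 1 array each). The cause was not tested. Over all probes the genotype difference on DSS gave 0 calls, but 782 when water and DSS arrays were weighted apart, 3903 on all 14 arrays and 5245 under spike-in scaling, and the interaction 33, with 0 to 19146 elsewhere. Among all probes in Flox, the share of DSS calls that were higher was 46.4%, but 65% with normexp and 1.12% under spike-in scaling; in GR iKO mice it was 49.4%, 58.7% and 6.27%. Deviations of same-numbered samples from their group means correlated at r = −0.23 to 0.31 over 18 pairs. The highest r was that of Flox water replicate 4 with GR iKO water replicate 4, which shared a slide. With the replicate number as a block 9, 8, 0, 0 and 0 members were called in the 5 comparisons. Ccl3 on water is limited by signal near background.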
